A study of Mus musculus with 56 samples.

Results

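The livers of 8 DIO-MASH mice dosed with high-dose zalfermin were compared with those of 8 chow-fed mice dosed with vehicle, which are 16 of the 56 mice of the series. The mice were taken by their treatment and diet labels and by no measured value. The comparison asks what still separates a treated liver from that of a mouse never given the disease-inducing diet. All mice were male C57BL/6J, aged 5 to 6 weeks on arrival. The treated mice, labelled zalfermin_high, had eaten the AMLN diet, with its high fat, fructose and cholesterol content, for 36 weeks and kept eating it through 8 weeks of daily subcutaneous injections at 0.2 mg/kg. They had entered dosing only with a steatosis score of at least 2 and a fibrosis stage of at least 1 in a biopsy taken beforehand, so they are a selected group with established disease. The control mice, labelled ChowVehicle, ate regular chow for the same time and were given the same injections without drug, and all mice were fasted for 4 hours before the liver was taken. The treated mice thus differed from the chow mice in diet and in drug at once, and the parts of diet, disease and drug in any difference below cannot be told apart. The 8 DIO-MASH mice given vehicle (diet AMLN) are therefore set beside them throughout. The 3 comparisons among these groups share mice, so their values are given side by side and no overlap of their called genes is given as a result. The genes named below as outside both other groups, or alike in both DIO-MASH groups, were chosen by rules that use 2 of the comparisons.

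Zalfermin is a long-acting analog of fibroblast growth factor 21 (FGF21), a hormone that acts through FGF receptors paired with the co-receptor beta-Klotho (Klb). In metabolic dysfunction-associated steatohepatitis (MASH), hepatocytes fill with lipid droplets, monocytes enter the liver and become lipid-associated macrophages, and stellate cells, the retinoid-storing pericytes of the sinusoid, turn into matrix-producing cells. Liver RNA from a whole piece of tissue holds the transcripts of all these cells, so that fewer cells of a type and less RNA per cell cannot be told apart.

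The 16 libraries held 5228187 to 17157826 reads in genes. Hepatocyte transcripts marked every library as liver: Alb alone took a mean of 11.2% of the reads in chow mice, 5.99% in vehicle-dosed DIO-MASH mice and 7.34% in zalfermin-treated mice. A few mice stood apart from their groups. Chow mouse 8 carried transcripts of intestinal epithelium, which were picked out after their values were seen: Vil1, a microvillus protein, read 273 CPM there (normalized counts, scaled to library size) and at most 0.87 CPM in the other 7 chow mice, and the sodium-glucose transporter Slc5a1 read 452 CPM against at most 4.20 CPM. Chow mice 2 and 7 had high acute-phase transcripts, with Saa1 at 5193 and 1613 CPM against 15.9 to 55.9 CPM in the other 6. Zalfermin-treated mouse 6 lay nearest to chow among the treated mice in macrophage and matrix genes. Values without these mice are given beside the results that they moved most.

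Of 14105 genes tested, 5249 (37.2%) differed between zalfermin-treated and chow mice at an adjusted p under 0.05 in edgeR's quasi-likelihood test, 2773 of them (19.7%) higher and 2476 (17.6%) lower. Without chow mouse 8 the count was 5184 of 14086 (36.8%), 2937 higher (20.9%) and 2247 lower (16%). Most of the differences were small, with a median absolute log2 fold change of 0.652 among the genes that passed, or 1.57-fold. Those of at least 1 on the log2 scale numbered 1930 (13.7%), and 1626 of these were higher (11.5%) against 304 lower (2.16%). The filter for tested genes ran over all 56 mice, of which 8 were chow. Genes with few reads in chow therefore passed it more easily than genes read in chow alone. The part of the filter in this excess of large rises was not tested. For differences of any size, raising the filter to a minimum of 10 reads in 8 mice turned the balance. It then gave 2421 higher and 2797 lower among 12792 genes tested. Lowering it to 1 read gave 2729 higher and 2528 lower among 17583. In 690 of the 14105 genes (4.89%) the 8 treated mice did not overlap the 8 chow mice, 404 genes lying above (2.86%) and 286 below (2.03%). For comparison, vehicle-dosed DIO-MASH mice differed from chow mice in 7811 genes (55.4%), 4072 higher (28.9%) and 3739 lower (26.5%). Zalfermin-treated mice differed from them in 2429 genes (17.2%), 1205 higher (8.54%) and 1224 lower (8.68%). Of these differences 3013 (21.4%) and 506 (3.59%) reached 1 on the log2 scale. The median log2 fold change over all tested genes was 0.0015 for zalfermin against chow and 0.0072 for vehicle against chow. The medians of the gene groups below are read beside these. Their counts of members higher or lower than in chow under zalfermin are read beside the 19.7% and 17.6% of all genes. Those shares hold for the main filter, since the balance between them turned under the stricter one. Counts under vehicle against chow are read beside 28.9% higher and 26.5% lower. Counts of zalfermin against vehicle are read beside 8.54% higher and 8.68% lower.

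**Figure D1:**
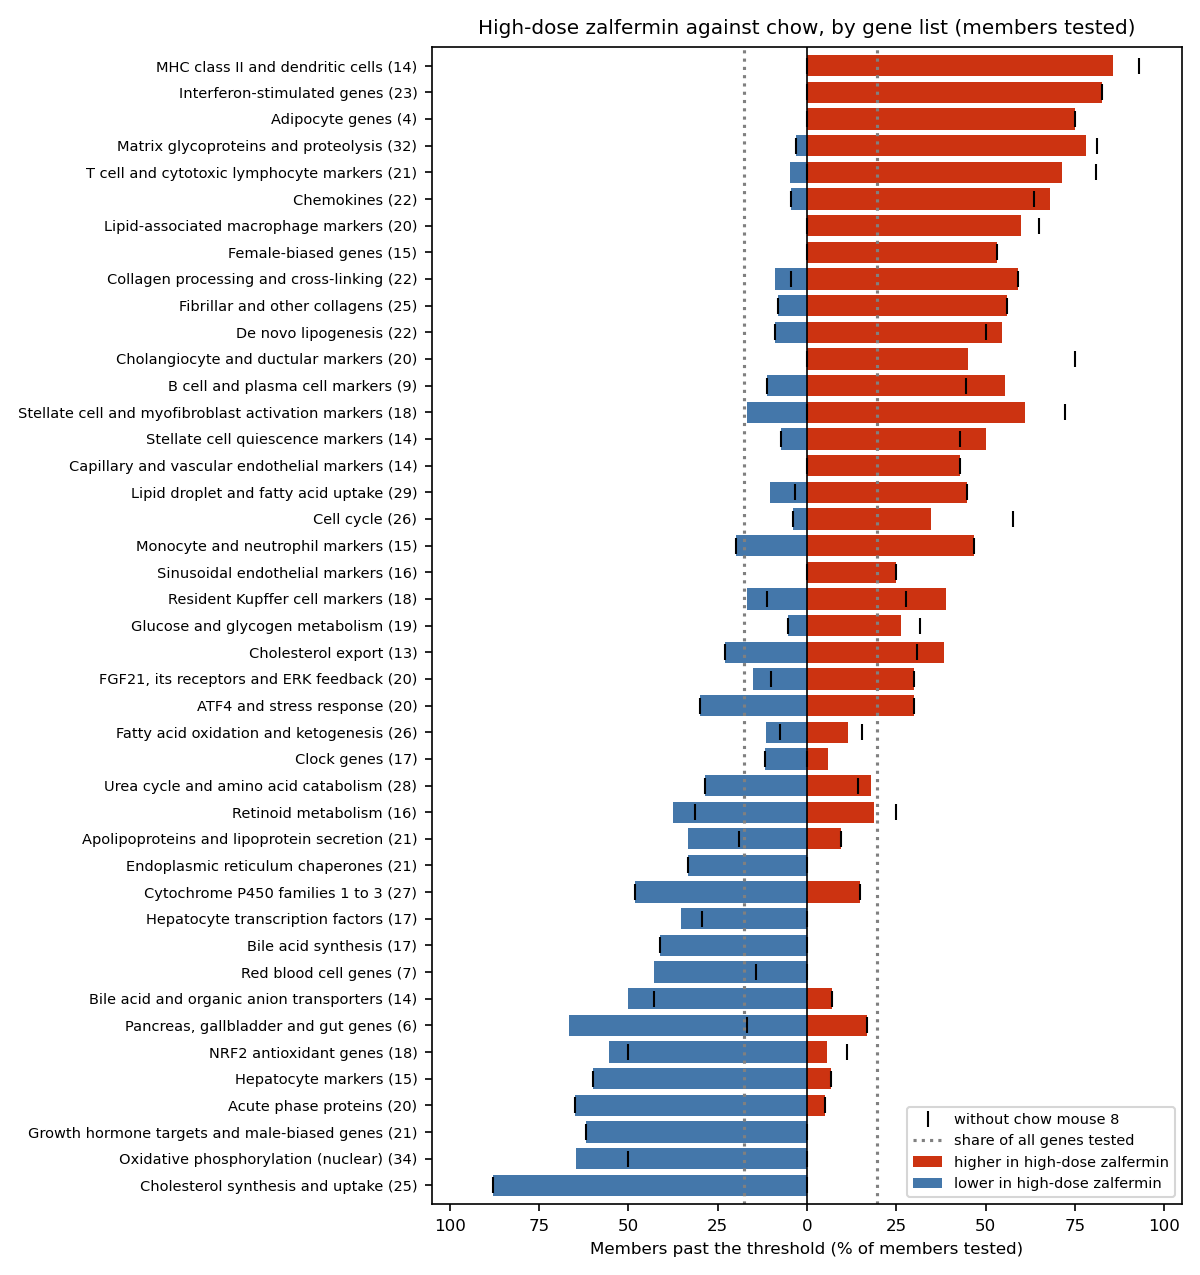
Share of the tested members of each gene group that were higher (right) or lower (left) in zalfermin-treated than in chow mice at an adjusted p under 0.05, in percent, with ticks for the same share without chow mouse 8 and dotted lines at the shares over all tested genes (19.7% and 17.6%). Interferon-stimulated, MHC class II and matrix genes reached furthest to the higher side and cholesterol synthesis genes to the lower side.

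The genes with the largest differences among those whose groups did not overlap included macrophage genes, cytochromes P450 and enzymes of cholesterol synthesis. Gpnmb, a transmembrane glycoprotein of lipid-laden macrophages, was read at 0.208 to 1.98 CPM (median 0.876) in chow mice, at 45.9 to 82.8 CPM (median 68.2) in vehicle-dosed DIO-MASH mice and at 3.04 to 57.4 CPM (median 28.1) under zalfermin (here and below the lowest to the highest of 8 mice). All treated mice lay above all chow mice (log2 fold change 5.09 ± 0.57 (SE), adjusted p = 2.3e-09). The lowest treated value, in mouse 6, was well under the other 7. The other 9 largest differences upwards were in Cyp2a4 (4.95), Cyp2b13 (4.81), the estrogen sulfotransferase Sult1e1 (4.78), the macrophage elastase Mmp12 (4.25), the insulin-responsive glucose transporter Slc2a4 (4.24), the leukocyte signalling adaptors Lat2 (3.95) and Stap1 (3.10), the macrophage lipid receptor Trem2 (3.92) and the leptin receptor Lepr (3.69), all as log2 fold changes. The 10 largest downwards were in Serpina1e, an alpha-1-antitrypsin paralog (-5.08), Cyp2b10 (-4.95), the squalene epoxidase Sqle (-4.01), the NKG2D ligands Raet1e (-3.45) and Raet1d (-2.75), Cyp2c55 (-2.98), Idi1 (-2.46), the complement inhibitor Susd4 (-2.28), the glutathione transferase Gsta2 (-2.25) and Cyp51 (-2.24). Members of the Serpina1, Raet1, Cyp2 and Gsta families are near-identical copies, so that reads may have been shared between them. Without chow mouse 8 the log2 fold change was -2.56 for Cyp2b10 and -2.27 for Cyp2c55, and the other 18 moved by less. Animal numbers were also split into ranges, which the labels do not give. Within a range that held 2 chow and 3 treated mice, the log2 fold change was 4.72 for Gpnmb, -4.53 for Sqle and 3.64 for Lepr. Within another that held 3 chow and 2 treated mice it was 5.32, -3.21 and 4.32.

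**Figure D2:**
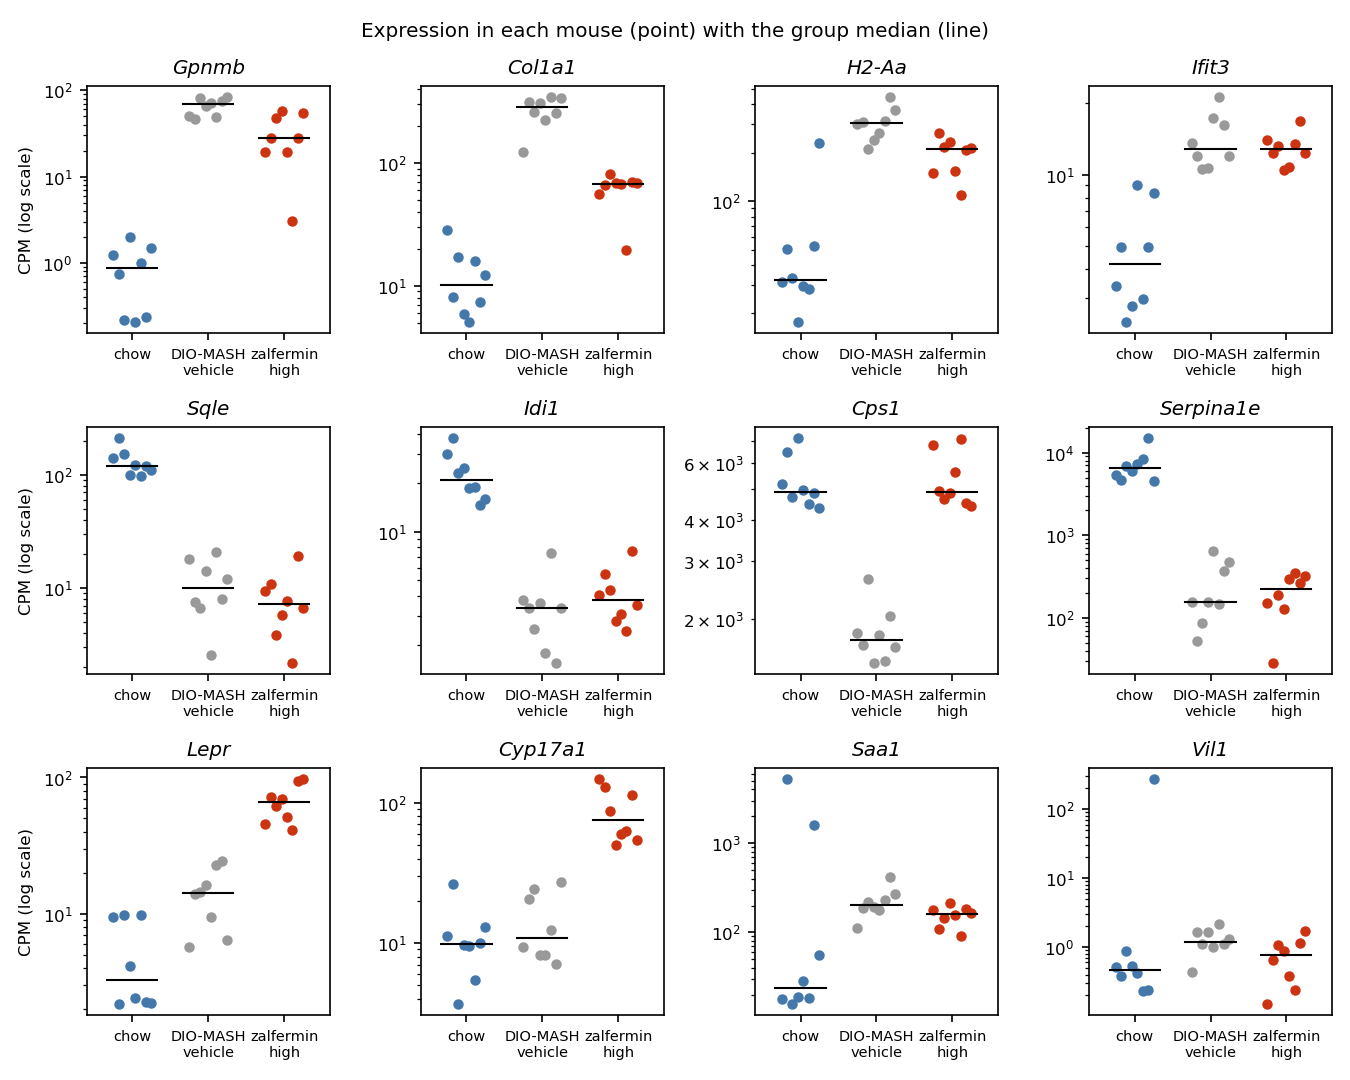
Normalized counts (CPM, log axis) of 12 genes in each mouse of the chow, vehicle-dosed DIO-MASH and high-dose zalfermin groups, 8 mice a group, with a line at each median. Gpnmb, Ifit3 and Lepr lay above chow in all treated mice and Sqle, Idi1 and Serpina1e below, Cps1 overlapped chow, Saa1 was far higher in chow mice 2 and 7 than in their group, and Vil1 in chow mouse 8.

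Cholesterol synthesis was the gene group with the highest share of lower members. Sterol synthesis runs from acetyl-CoA through mevalonate and squalene to lanosterol and cholesterol, and its enzymes are transcribed under the sterol-sensing factor SREBP-2 together with the CCAAT-binding factor NF-Y. Of 25 genes tested, 22 were lower in zalfermin-treated than in chow mice and the other 3, Sc5d and Insig1 among them, did not pass. The median log2 fold change was -0.97, against -1.30 in vehicle-dosed mice, where 23 were lower. In 9 of the 25 no treated mouse reached the lowest chow mouse, which was so for 2.03% of all genes. Sqle, which makes squalene epoxide, was read at 96.9 to 210.3 CPM (median 121) in chow mice, 2.54 to 20.9 CPM (median 9.98) in vehicle-dosed mice and 2.19 to 19.2 CPM (median 7.17) under zalfermin, a log2 fold change of -4.01 ± 0.47 (SE, adjusted p = 5.23e-09). The treated mice were all below the chow mice and lay in much the same range as the vehicle-dosed mice.

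The isomerase Idi1 fell from 14.7 to 37.8 CPM (median 21) to 2.43 to 7.59 CPM (median 3.80) (-2.46 ± 0.26, adjusted p = 5.02e-10). The lanosterol demethylase Cyp51 fell from 225 to 368 CPM (median 285) to 31.8 to 100.1 CPM (median 61.2) (-2.24 ± 0.20, adjusted p = 5.5e-12). For the sterol dehydrogenase Nsdhl the ranges were 76.2 to 194 CPM (median 134) and 12.7 to 52.2 CPM (median 29.9) (-2.17 ± 0.23, adjusted p = 6.47e-10). In these 3 genes the treated and chow mice again did not overlap, which the rules that picked them required. Zalfermin against vehicle gave differences of 0.29, 0.07 and -0.04 that did not pass the test (adjusted p from 0.501 to 0.926). For Cyp51 and Nsdhl a log2 difference from vehicle under 0.2 either way was part of the rule, so their likeness to vehicle is no separate result. In all, 10 of the 25 were higher under zalfermin than under vehicle, beside 8.54% of all genes. The count of lower genes was 22 without chow mouse 8, 21 without chow mice 2 and 7, and 23 without those 3 and treated mouse 6.

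The promoters of 4 members are shown because the group moved together and most of its promoters share the CCAAT letters. They are the 200 bases before the start site from RefSeq on GRCm38.p6, 5′ to 3′ on the gene's strand, with capitals on CCAAT or its reverse complement ATTGG and, in Hmgcs1, also on a TCACNCCAC match. Hmgcs1, which makes HMG-CoA, was lower by -1.38 on the log2 scale (its promoter at chr13:119690151-119690350, plus strand), and the others lay at chr13:8885406-8885605, plus strand (Idi1), chr5:4104698-4104897, minus strand (Cyp51) and chrX:72918321-72918520, plus strand (Nsdhl).
Hmgcs1: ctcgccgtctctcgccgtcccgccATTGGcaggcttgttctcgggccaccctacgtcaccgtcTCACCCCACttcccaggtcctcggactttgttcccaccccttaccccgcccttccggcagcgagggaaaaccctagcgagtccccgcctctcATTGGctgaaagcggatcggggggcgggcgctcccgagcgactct
Idi1: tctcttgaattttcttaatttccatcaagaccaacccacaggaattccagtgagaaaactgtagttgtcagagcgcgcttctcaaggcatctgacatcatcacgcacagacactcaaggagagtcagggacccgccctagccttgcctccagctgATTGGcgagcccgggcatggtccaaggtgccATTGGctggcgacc
Cyp51: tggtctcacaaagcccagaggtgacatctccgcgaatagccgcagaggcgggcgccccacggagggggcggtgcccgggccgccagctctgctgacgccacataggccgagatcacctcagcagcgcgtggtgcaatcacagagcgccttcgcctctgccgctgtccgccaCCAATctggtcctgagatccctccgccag
Nsdhl: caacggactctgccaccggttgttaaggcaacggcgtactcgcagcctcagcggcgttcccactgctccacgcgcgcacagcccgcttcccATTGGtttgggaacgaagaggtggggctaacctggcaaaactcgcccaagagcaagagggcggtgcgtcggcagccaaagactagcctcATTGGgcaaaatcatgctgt
In windows from 250 bases before to 50 after the start, searched on both strands, CCAAT was found in 16 of the 17 cholesterol genes with a promoter in the table (94.1%) and in 42.6% of the 11057 tested genes with one. The letters TCACNCCAC, searched as a sterol response element, were found in 1 of 17 (5.88%) against 1.48%, and CACGTG in 4 of 17 (23.5%) against 11.2%. A match is a string of letters and was not tested as a binding site.

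Genes of cholesterol export moved in both directions. Abcg1, a sterol exporter of macrophages, was higher than in chow in every treated mouse (3.32 to 10.9 CPM (median 6.40) against 14.8 to 23.6 CPM (median 21)) and lower than in every vehicle-dosed mouse (23.9 to 37.9 CPM (median 30.5)), with a log2 fold change against chow of 1.56 ± 0.22 (adjusted p = 3.09e-07). Abcg5 and Abcg8, which together pump sterol into bile, were higher than in chow (0.91 and 0.67) and also higher than in vehicle-dosed mice (0.65 and 0.89). The sterol esterifying enzymes Soat2 (-0.78) and Lcat (-0.50) were lower. Over the group 5 of 13 were higher (3 without treated mouse 6) and 3 lower, with a median of 0.11. Over all genes tested 19.7% were higher and 17.6% lower.

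Markers of lipid-associated macrophages were higher than in chow in 12 of 20 genes tested, with a median log2 fold change of 1.46 (2.10 in vehicle-dosed mice, where 16 were higher). Trem2 was read at 0.0901 to 0.978 CPM (median 0.50) in chow mice, 10.2 to 24.6 CPM (median 12.6) in vehicle-dosed mice and 1.58 to 13 CPM (median 7.67) under zalfermin (3.92 ± 0.45, adjusted p = 4.74e-09). The integrin Itgax (CD11c) was read at 0.541 to 3.57 CPM (median 1.12), 18 to 28.9 CPM (median 23.9) and 4.74 to 17.3 CPM (median 11.8) in the same order (3.06 ± 0.41, adjusted p = 9.55e-08). For both genes every treated mouse lay above every chow mouse, and for Itgax also below every vehicle-dosed mouse. Mmp12 had the same order, at 0.118 to 0.821 CPM (median 0.471), 18.2 to 57.8 CPM (median 32.1) and 0.972 to 14.8 CPM (median 10.9), and was lower under zalfermin than under vehicle by -1.79 ± 0.36 on the log2 scale (adjusted p = 0.000243). Spp1, osteopontin, which ductular cells also make, was higher than in chow (2.45 ± 0.41, adjusted p = 5.65e-06), but treated mouse 6 at 26.4 CPM lay within the chow range of 20.8 to 49.4 CPM. Members whose levels did not pass against chow included the lipid droplet coat Plin2 (0.07), the tetraspanin Cd9 (0.20) and the lysosomal lipase Lipa (0.02), all 3 lower than in vehicle-dosed mice (-0.98, -0.72 and -0.42).

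The myeloid genes Mpeg1 and Lyz2 were also higher than in chow. Mpeg1, a pore-forming protein of macrophages, was read at 38.7 to 251 CPM (median 61.4) in chow mice and 261 to 419.6 CPM (median 312) in treated mice, close to the 259 to 409.6 CPM (median 354) of vehicle-dosed mice. Its log2 fold change was 1.84 ± 0.23 against chow (adjusted p = 2.12e-08) and -0.14 ± 0.22 against vehicle (adjusted p = 0.728). The lysozyme Lyz2 was higher than in chow by 1.89 ± 0.30 (adjusted p = 2.58e-06). It read 17.2 to 119 CPM in chow and 95.5 to 259.6 CPM in treated mice, so that the ranges overlapped. The monocyte receptors Ccr2 (2.45) and Cx3cr1 (2.71) were above chow in every treated mouse and lower than under vehicle (-0.95 and -0.86). S100a8, a neutrophil gene read at 0.231 to 14.1 CPM (median 1.39) in chow and 0.168 to 1.62 CPM (median 0.808) in treated mice, gave -2.11 (adjusted p = 0.0117) with all mice and -0.34 (adjusted p = 0.745) without chow mice 2 and 7. Of the 15 monocyte and neutrophil markers 7 were higher and 3 lower, or 10 and 1 without the acute-phase chow mice 2 and 7, and 11 and 1 without chow mouse 2 alone. Without both, chow mouse 8 and treated mouse 6, 12 were higher and the lower calls were lost.

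Most of the resident Kupffer cell markers that passed were higher than in chow, and a few were lower. The scavenger receptors Marco and Cd163 were lower than in chow, Marco at 8.22 to 94.6 CPM (median 14.6) against 0.399 to 12.9 CPM (median 1.63) (-3.54 ± 0.90, adjusted p = 0.00153) and Cd163 at 6.26 to 46.1 CPM (median 13.5) against 0 to 14.8 CPM (median 0.208) (-3.07 ± 0.94, adjusted p = 0.00791). Treated mouse 6, at 12.9 and 14.8 CPM, was the treated mouse inside the chow range in both genes, and without it the differences were -4.36 and -5.88. Timd4, a receptor of embryonically derived Kupffer cells, gave -0.93 ± 0.51 and did not pass (adjusted p = 0.149), and neither did Clec4f (0.71 ± 0.32, adjusted p = 0.0745). The pan-macrophage receptors Adgre1 (1.35) and Csf1r (0.78) and the secreted Cd5l (1.07) were higher. In all 7 of 18 were higher and 3 lower, beside 19.7% and 17.6% of all genes tested. The counts were 5 and 2 without chow mouse 8 and 9 and 4 without chow mice 2 and 7.

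Genes of antigen presentation by MHC class II were higher than in chow: 12 of 14 genes of the MHC class II and dendritic cell group were higher (median 1.87, against 2.27 under vehicle) and the other 2, Zbtb46 and Itgae, did not pass. Without chow mice 2, 7 and 8 and treated mouse 6 it was 13 (median 2.65). The class II chain H2-Aa was read at 17.8 to 230.4 CPM (median 32.3) in chow mice, 209.9 to 443 CPM (median 308) in vehicle-dosed mice and 109.5 to 265 CPM (median 211) under zalfermin (1.72 ± 0.34, adjusted p = 8.97e-05). The highest chow value came from chow mouse 8, whose group mates lay at no more than 52.3 CPM, and without it the difference was 2.48 (adjusted p = 5.17e-09) with no overlap between the groups. The invariant chain Cd74 behaved alike (1.63, and 2.20 without chow mouse 8). Ciita, the transactivator that switches on class II genes, was above chow in every treated mouse (0.217 to 3.45 CPM (median 1.04) against 4.67 to 11.5 CPM (median 8.23), 2.75 ± 0.36), as was the dendritic cell growth factor receptor Flt3 (0 to 0.492 CPM (median 0.207) against 0.966 to 3.06 CPM (median 1.60), 2.77 ± 0.38). Against vehicle-dosed mice the differences of H2-Aa (-0.66 ± 0.33, adjusted p = 0.168), Cd74 (-0.69, 0.133) and Ciita (-0.43, 0.352) did not pass.

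Interferon-stimulated genes, which cells switch on after interferon binds its receptor, were higher than in chow in 19 of 23 genes tested, with a median of 1.19 (1.51 under vehicle, with 19 higher). The other 4, Bst2, Irf7, Oasl1 and Stat2, did not pass. In 9 of the 23 all treated mice lay above all chow mice, against 2.86% of all genes. Ifit3, which blocks viral RNA translation, was read at 2.39 to 9.05 CPM (median 4.18) in chow mice, 10.6 to 21.2 CPM (median 12.8) in vehicle-dosed mice and 10.5 to 16.9 CPM (median 12.8) under zalfermin (1.40 ± 0.21, adjusted p = 9.6e-07). Ifi44 was read at 0.307 to 1.85 CPM (median 0.715), 2.59 to 5.84 CPM (median 4.56) and 2.92 to 7.12 CPM (median 4.55) (2.55 ± 0.25, adjusted p = 4e-11). Both had treated and vehicle-dosed mice at like levels, with differences of -0.14 ± 0.20 and -0.01 ± 0.20 (adjusted p = 0.685 and 0.978). The ubiquitin-like Isg15 (0.89 ± 0.23) and the guanylate-binding protein Gbp2 (1.69 ± 0.34) were higher with overlap at the edges, and without chow mouse 8 Gbp2 gave 2.21. The count of 19 was the same without chow mouse 8, without chow mice 2 and 7, and without all 3 and treated mouse 6.

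Promoters of 3 of these genes are shown because they hold the interferon-response letters, with capitals on TTTC followed after any 2 bases by a further TTTC, or on the reverse complement. This motif was searched after the genes' values were seen. They lie at chr4:156200819-156201018, minus strand (Isg15), chr19:34583329-34583528, plus strand (Ifit3) and chr3:142620463-142620662, plus strand (Gbp2), each the 200 bases before the start site from RefSeq on GRCm38.p6.
Isg15: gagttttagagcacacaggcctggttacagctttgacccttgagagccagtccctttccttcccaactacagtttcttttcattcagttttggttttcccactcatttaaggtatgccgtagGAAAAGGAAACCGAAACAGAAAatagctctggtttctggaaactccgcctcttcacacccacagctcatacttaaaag
Ifit3: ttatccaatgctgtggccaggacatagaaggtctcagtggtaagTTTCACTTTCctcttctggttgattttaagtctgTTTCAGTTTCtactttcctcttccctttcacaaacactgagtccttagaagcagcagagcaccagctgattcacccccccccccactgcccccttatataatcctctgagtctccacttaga
Gbp2: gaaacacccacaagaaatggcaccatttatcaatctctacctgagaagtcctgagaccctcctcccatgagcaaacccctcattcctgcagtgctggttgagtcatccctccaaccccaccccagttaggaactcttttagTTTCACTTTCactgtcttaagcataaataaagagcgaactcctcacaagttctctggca
Matches overlap in Isg15. In windows from 250 bases before to 50 after the start, searched on both strands, the letters were found in 10 of the 17 interferon-stimulated genes with a promoter in the table (58.8%) and in 4.01% of the 11057 tested genes with one.

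T cell and cytotoxic lymphocyte markers were higher in 15 of 21 genes, at low levels (median 1.75, against 2.02 under vehicle). The T cell receptor subunit Cd3e was read at 0 to 0.692 CPM (median 0.283) in chow mice and 0.302 to 3.65 CPM (median 1.35) in treated mice (2.36 ± 0.49, adjusted p = 0.00016). The co-receptor Cd8a was read at 0 to 4.06 CPM (median 0.269) and 0.452 to 4.13 CPM (median 2.80) (1.65 ± 0.52, adjusted p = 0.0102). In chow mouse 8 Cd8a reached 4.06 CPM, and without that mouse the difference was 2.75. Gzma, a granzyme, changed direction with it: -1.90 ± 0.64 (adjusted p = 0.0168) with the mouse, where it read 19.5 CPM, and 1.2 (adjusted p = 0.0363) without. Themis, which is needed for T cell development, did not follow the other markers. It was read at 0.615 to 11.3 CPM (median 1.54) in chow mice, 19.8 to 47.9 CPM (median 32.1) in vehicle-dosed mice and 1.82 to 5.37 CPM (median 2.99) under zalfermin, which did not pass against chow (0.06 ± 0.42, adjusted p = 0.921) and lay below all vehicle-dosed mice (-3.23 ± 0.39, adjusted p = 2.58e-08).

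B cell markers were higher in 5 of 9 genes, but only 1 passed without treated mouse 6, and 3 without chow mouse 4, chow mouse 6 or treated mouse 2. Treated mouse 6 held the highest treated levels of Pax5 (5.10 CPM) and Ms4a1 (10.1 CPM). Among the chemokines and their receptors 15 of 22 were higher and 1, Ccl9, was lower (median 1.31). Without chow mice 2 and 7 18 were higher (median 2.13), and without those, chow mouse 8 and treated mouse 6 20 were (median 2.53). Ccl5, a T cell attractant, was read at 0.718 to 6.52 CPM (median 1.05) in chow and 1.81 to 18.3 CPM (median 11.3) in treated mice (2.64 ± 0.48, adjusted p = 2.22e-05). The interferon-gamma-induced Cxcl9 was read at 3.59 to 40 CPM (median 6.48) and 16.6 to 53.2 CPM (median 32.3) (1.69 ± 0.36, adjusted p = 0.00018). The highest chow value of both was that of chow mouse 8. Ccl2, a monocyte attractant, was higher than in chow by 1.58 ± 0.44 and lower than in vehicle-dosed mice by -1.22 ± 0.36 (adjusted p = 0.00376 and 0.0117). Ccl24, an eosinophil attractant, had its highest levels under zalfermin: 0.205 to 1.60 CPM (median 1.0) in chow, 0.240 to 1.38 CPM (median 0.814) in vehicle-dosed and 0.838 to 4.98 CPM (median 1.82) in treated mice. It was higher than in chow (1.27 ± 0.37, adjusted p = 0.00545) and than under vehicle (1.65 ± 0.37, adjusted p = 0.000969). Genes with no read in any chow mouse, such as Ccl7, are counted as called, and setting them at a bound of 3 counts over the group left the medians as they are.

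**Figure D3:**
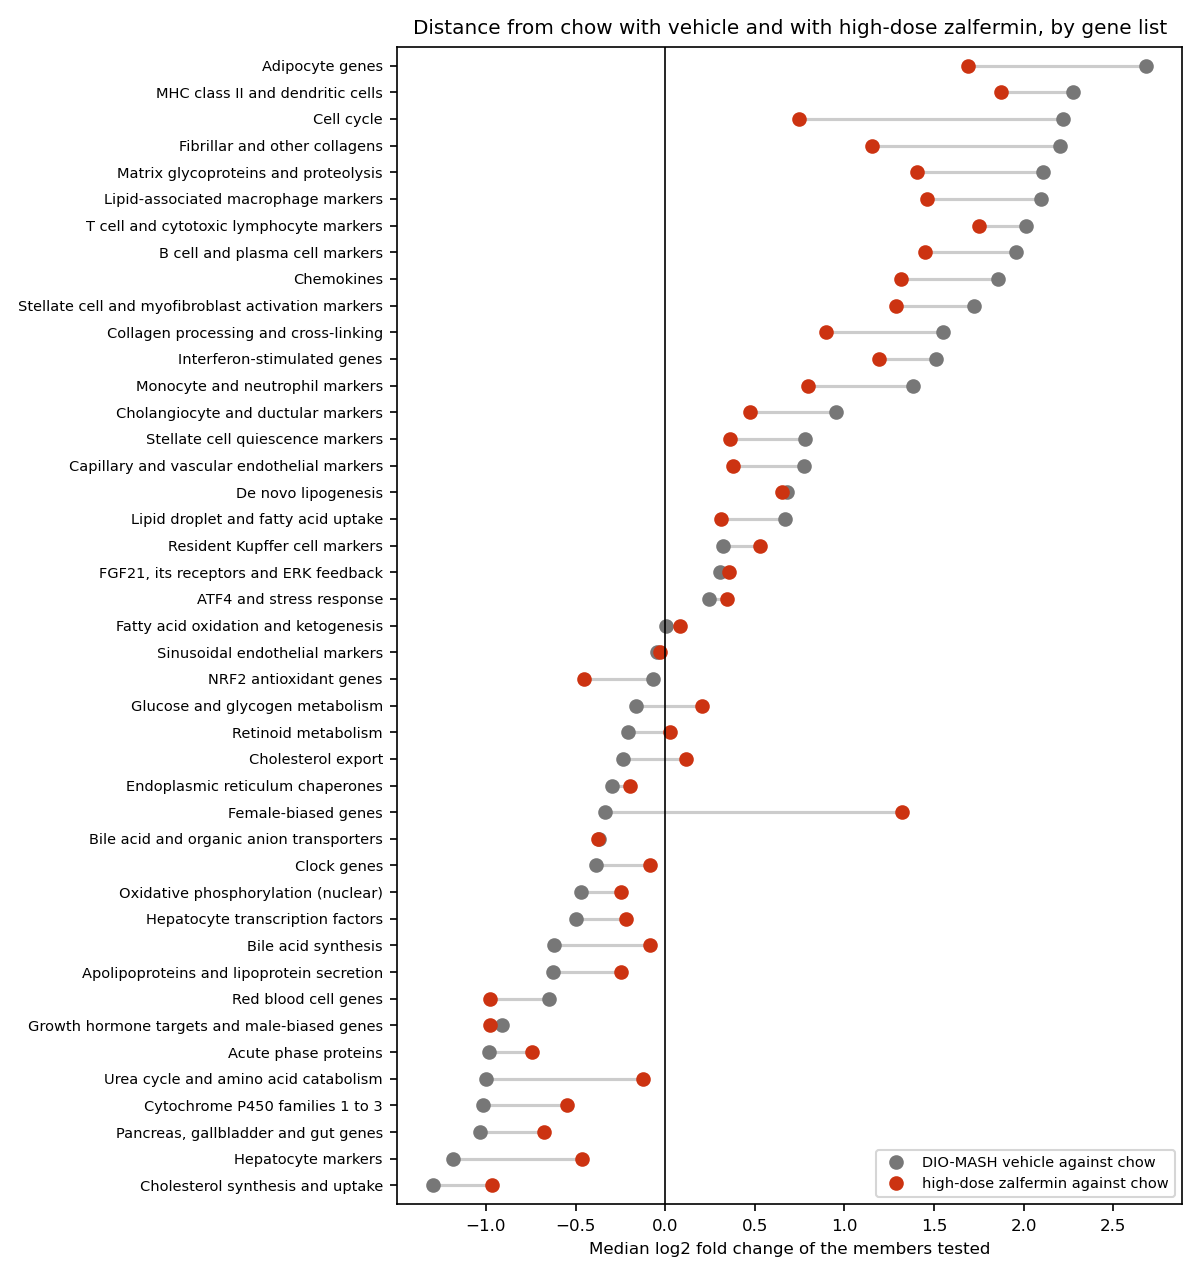
Median log2 fold change against chow over the tested members of each gene group, for vehicle-dosed DIO-MASH mice (grey) and high-dose zalfermin mice (red), which share the same 8 chow mice. Both points lay far to the right for MHC class II, T cell and matrix genes, both to the left for cholesterol synthesis, and apart from each other for cell cycle genes (2.22 and 0.75).

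Matrix genes were in part higher than in chow and in part lower than under vehicle. Of 25 collagens tested 14 were higher than in chow and 2 lower (median 1.16), whereas under vehicle 18 were higher (median 2.20), and 18 were lower under zalfermin than under vehicle. Over all genes 28.9% were higher under vehicle than in chow, and 8.68% were lower under zalfermin than under vehicle. In 7 collagens all treated mice lay above all chow mice, against 2.86% of all genes. Col1a1, the main chain of type I collagen, was read at 5.10 to 28.3 CPM (median 10.2) in chow mice, 123 to 344 CPM (median 284) in vehicle-dosed mice and 19.6 to 82.1 CPM (median 67.8) under zalfermin. It was higher than in chow (2.33 ± 0.40, adjusted p = 9.66e-06), with treated mouse 6 inside the chow range. It was below every vehicle-dosed mouse (-2.12 ± 0.38, adjusted p = 5.15e-05). Col3a1 was read at 10.4 to 39.5 CPM (median 25.6), 256 to 507 CPM (median 417) and 53.1 to 103 CPM (median 90.6) and overlapped neither group, with 1.81 ± 0.32 against chow and -2.20 ± 0.32 against vehicle (adjusted p = 1.5e-05 and 1.09e-06). The type VI chain Col6a3 had the largest log2 fold change among collagens, at 2.59 ± 0.37 (adjusted p = 3.15e-07). The 2 lower ones were Col5a3 (-0.75) and Col18a1 (-0.28), the endostatin precursor, which hepatocytes make too, and 1 was lower without chow mice 2 and 7.

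Genes for collagen processing and cross-linking were higher in 13 of 22 and matrix glycoproteins, proteases and their inhibitors in 25 of 32, with medians of 0.90 and 1.41 (1.55 and 2.11 under vehicle). Lower than under vehicle were 8 and 15 of them, beside 8.68% of all genes. Timp1, an inhibitor of matrix metalloproteinases, was read at 0 to 0.527 CPM (median 0.207) in chow, 3.49 to 8.98 CPM (median 5.90) in vehicle-dosed and 0.608 to 3.09 CPM (median 1.56) in treated mice, with no overlap on either side (2.90 ± 0.52, adjusted p = 1.74e-05). The proteoglycans lumican (Lum, 2.49 ± 0.40) and decorin (Dcn, 1.40 ± 0.21) and the gelatinase Mmp2 (2.46 ± 0.45) were higher than in chow, and their differences from vehicle (-0.62, -0.40 and -1.02) did not pass (adjusted p = 0.244, 0.168 and 0.0584). Periostin, Postn, and tenascin, Tnc, were lower than under vehicle (-2.08 and -2.03) and did not pass against chow (-0.50 and 0.83), although Tnc passed without chow mouse 8 (1.28, adjusted p = 0.0064). Counts of higher genes in these 3 groups moved by at most 2 without chow mouse 8, without chow mice 2 and 7, or without all 3 and treated mouse 6.

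Among stellate cell genes the platelet-derived growth factor receptor Pdgfrb was read at 4.05 to 13.1 CPM (median 7.86) in chow, 31.8 to 65.6 CPM (median 48) in vehicle-dosed and 11.2 to 38.8 CPM (median 31.9) in treated mice (1.94 ± 0.30, adjusted p = 1.26e-06). Lrat, which esterifies retinol for storage, was read at 6.24 to 16.1 CPM (median 8.47), 28.7 to 39.7 CPM (median 34.4) and 16 to 39.7 CPM (median 25.3) (1.48 ± 0.20, adjusted p = 1.2e-07). The first is used as a marker of the lineage and the second of its quiescent state, and both were higher. Hhip, an inhibitor of hedgehog signals, was lower (-2.02 ± 0.56, adjusted p = 0.00343). Quiescence markers were higher in 7 of 14 and lower in 1, activation markers higher in 11 of 18 and lower in 3. The 3 lower activation markers, Acta2, Cnn1 and Myl9, are contractile genes of smooth muscle, and rested on chow mouse 8. Acta2 was read at 50.1 CPM there. Its difference of -1.42 ± 0.39 (adjusted p = 0.00370) became -0.46 (adjusted p = 0.248) without it. Without that mouse 13 of 18 were higher, among them Tagln at 0.60 and Des at 0.84, which had given -0.03 and -0.01. Gut wall holds smooth muscle, and the part of other tissue in these values was not tested.

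Genes of lipid droplets and fatty acid uptake were higher in 13 of 29 and lower in 3 (median 0.31, against 0.67 under vehicle). Without chow mouse 7 or 8, or treated mouse 5 or 6, 1 was lower. Cidea, a lipid droplet fusion protein, was read at 0 to 0.832 CPM (median 0.147) in chow, 25.3 to 67.0 CPM (median 47.2) in vehicle-dosed and 0.243 to 7.28 CPM (median 2.27) in treated mice. It was lower than under vehicle by -4.00 ± 0.44 (adjusted p = 2.66e-09) and still higher than in chow by 3.65 ± 0.76 (adjusted p = 0.000142). Its relative Cidec had the same order (0.615 to 13.7 CPM (median 3.87), 96.0 to 218 CPM (median 166) and 3.89 to 78.5 CPM (median 32.5), 2.72 ± 0.47 against chow), as had the acyltransferase Mogat1 (1.80) and Fabp4 (1.54). Cd36, the fatty acid translocase, was read at 49 to 92.8 CPM (median 65.3), 273 to 413 CPM (median 367) and 126 to 309 CPM (median 249.6) and lay above chow in every treated mouse (1.84 ± 0.15, adjusted p = 3.22e-13). Plin2, the main droplet coat, lay within the chow range in all treated mice, at 224 to 571 CPM (median 388) in chow, 684 to 942 CPM (median 854) in vehicle-dosed and 339 to 559 CPM (median 407) in treated mice (0.07 ± 0.15 against chow, adjusted p = 0.761), and Pparg did not pass against chow either (0.01 ± 0.16, adjusted p = 0.968). Both were below all vehicle-dosed mice.

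Genes of fatty acid synthesis were higher than in chow in 12 of 22 (median 0.65, against 0.68 under vehicle) and lower in 2. Acacb, an acetyl-CoA carboxylase, was read at 97.2 to 139.9 CPM (median 107) in chow, 117 to 292 CPM (median 237) in vehicle-dosed and 198 to 616 CPM (median 288) in treated mice (1.46 ± 0.23, adjusted p = 2.05e-06), with every treated above every chow mouse. Elovl6 (1.48 ± 0.28) and Thrsp (1.40 ± 0.33) gave like values with overlap, and the desaturase Scd1 gave 0.75 ± 0.19 (adjusted p = 0.00124). Differences of these 4 from vehicle did not pass (adjusted p = 0.114, 0.181, 0.637 and 0.288). The lower genes were Acss2, which makes acetyl-CoA from acetate and is also an SREBP target (-1.04), and Dgat1 (-0.81), whose difference was -0.25 without chow mouse 8.

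Hepatocyte transcripts were mostly lower than in chow. Of 15 hepatocyte markers 9 were lower and 1, Glul, was higher, with a median of -0.46 against -1.19. Alb was read at 112000 to 186100 CPM (median 121100) in chow, 43210 to 64740 CPM (median 52530) in vehicle-dosed and 55680 to 101700 CPM (median 74930) in treated mice and did not overlap chow (-0.88 ± 0.14, adjusted p = 1.81e-06). The nuclear receptor Hnf4a overlapped neither group (907 to 1144 CPM (median 995), 349 to 548 CPM (median 442) and 554 to 826 CPM (median 653)), at -0.55 ± 0.14 against chow and 0.64 ± 0.14 against vehicle (adjusted p = 0.00120 and 0.000559). Serpina1e showed no such middle place: 4487 to 14970 CPM (median 6452) in chow, 52.3 to 652 CPM (median 155) in vehicle-dosed and 28.5 to 345 CPM (median 225) in treated mice (-5.08 ± 0.82 against chow, -0.28 ± 0.69 against vehicle, adjusted p = 2.85e-06 and 0.829). Of 17 hepatocyte transcription factors 6 were lower, among them Foxa3 (-0.84), Nr1h4 (-0.56) and Onecut2 (-0.36).

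Genes of the urea cycle and amino acid catabolism, a task of the healthy hepatocyte, were higher under zalfermin than under vehicle in 24 of 28. Over all genes this was so for 8.54%. Against chow 5 were higher and 8 lower (median -0.12), whereas under vehicle 25 were lower (median -1.0), beside 26.5% of all genes. The genes lower than in chow numbered 5 without chow mice 2 and 7 and 3 without those, chow mouse 8 and treated mouse 6. The higher ones numbered 2 without chow mouse 3 or treated mouse 1 and 3 without treated mouse 2. Cps1, which makes carbamoyl phosphate for the cycle, was read at 4364 to 7128 CPM (median 4900) in chow, 1471 to 2647 CPM (median 1724) in vehicle-dosed and 4431 to 7086 CPM (median 4876) in treated mice. The log2 fold change was 0.03 ± 0.20 against chow (adjusted p = 0.934) and 1.56 ± 0.20 against vehicle (adjusted p = 1.01e-07). Treated mice lay within the chow range and above all vehicle-dosed mice, as they did for the tyrosine pathway enzyme Hpd (0.19 against chow, 1.54 against vehicle). Argininosuccinate synthase, Ass1, remained lower than in chow (1915 to 4178 CPM (median 3471) against 1519 to 2071 CPM (median 1874), -0.86 ± 0.17, adjusted p = 5.23e-05). The aspartate aminotransferase Got1, with 176 to 559.5 CPM (median 288) in chow and 276 to 687 CPM (median 447) in treated mice, was higher than in chow (0.61 ± 0.23, adjusted p = 0.0307).

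Of 17 genes of bile acid synthesis 7 were lower than in chow (median -0.08, against -0.62 and 11 lower under vehicle). The oxysterol hydroxylase Cyp7b1 (-0.74 ± 0.26, adjusted p = 0.0205) and the receptor Fgfr4 (-0.62 ± 0.12, adjusted p = 6.11e-05) were among them. Cyp7a1, the rate-limiting enzyme of bile acid synthesis, was read at 115 to 492 CPM (median 200.4) in chow, 69.8 to 262 CPM (median 158) in vehicle-dosed and 168 to 531 CPM (median 389) in treated mice. It was higher than under vehicle (1.13 ± 0.35, adjusted p = 0.0200) and did not pass against chow (0.56 ± 0.35, adjusted p = 0.206). Klb was read at 42.1 to 63.1 CPM (median 48.8), 15.2 to 34.9 CPM (median 26.1) and 32.1 to 53.7 CPM (median 43.1) and did not pass against chow (-0.24 ± 0.14, adjusted p = 0.180). Fgf21 itself was read at 0.123 to 3.39 CPM (median 0.828), 1.94 to 6.33 CPM (median 2.78) and 0.122 to 2.65 CPM (median 1.66) (0.70 ± 0.45 against chow, adjusted p = 0.224). Among 20 genes of FGF21, its receptors and their ERK feedback 6 were higher, including the ERK phosphatase Dusp6 (0.73) and Spry1 (0.86), and 3 lower, Egr1 (-1.22), Fos (-1.15) and Fgfr4. Of the lower genes Fgfr4 alone passed without chow mouse 7, treated mouse 3 or treated mouse 7.

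Apolipoprotein and lipoprotein secretion genes were lower in 7 of 21 and higher in 2 (median -0.25), or lower in 4 without chow mouse 8. Apoa4, a lipid-induced apolipoprotein, was read at 236 to 1254 CPM (median 314) in chow, 3508 to 6150 CPM (median 4468) in vehicle-dosed and 823 to 1930 CPM (median 1399) in treated mice. It was higher than in chow by 1.60 ± 0.26 (adjusted p = 4.27e-06) and below all vehicle-dosed mice. It is also an intestinal gene, and its highest chow value was that of chow mouse 8, without which the difference was 2.05. Apom, the carrier of sphingosine 1-phosphate, was below chow in all treated mice (209 to 380.1 CPM (median 281) against 98.7 to 185 CPM (median 154), -0.85 ± 0.12, adjusted p = 2.16e-07).

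Cytochrome P450 genes of families 1 to 3 were lower in 13 of 27 and higher in 4 (median -0.55, against -1.02 under vehicle). Cyp3a11, a major xenobiotic hydroxylase, was read at 4182 to 8244 CPM (median 7182) in chow, 3395 to 5034 CPM (median 4145) in vehicle-dosed and 1073 to 3696 CPM (median 3043) in treated mice and was lower than in both (-1.28 ± 0.17 and -0.55 ± 0.16, adjusted p = 6.05e-08 and 0.0150). Cyp1a2, a pericentral enzyme, lay between the groups without overlap (607 to 1209 CPM (median 887), 133 to 239 CPM (median 157) and 273 to 519 CPM (median 420.1), -1.07 ± 0.22 against chow). Cyp2b10, a target of the receptor CAR, was read at 1.08 to 109 CPM (median 3.29) in chow and 0.151 to 0.972 CPM (median 0.503) in treated mice, and chow mouse 8 held the highest value.

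Genes that are biased towards male or female liver moved apart from each other against chow. Of 21 growth hormone targets and male-biased genes 13 were lower than in chow (median -0.98), and of 15 female-biased genes 8 were higher (median 1.32). Under vehicle the median of the first group was -0.91 with 11 lower, and that of the second -0.33 with 3 higher and 5 lower. Zalfermin against vehicle gave positive medians in both, 0.43 with 6 higher and 2 lower in the first and 2.25 with 10 higher and 0 lower in the second. Hsd3b5, a male-specific steroid reductase, was read at 0.226 to 167 CPM (median 93.1) in chow, 0 to 2.90 CPM (median 0.637) in vehicle-dosed and 0.0827 to 17.1 CPM (median 1.17) in treated mice (-4.59 ± 1.19, adjusted p = 0.00195), the lowest chow value being that of mouse 2. Cyp4a12a, another male-biased enzyme, gave 0.21 under vehicle, which did not pass, and was lower than in chow under zalfermin (36.2 to 273 CPM (median 173) in chow, 9.09 to 77.8 CPM (median 46) in treated mice, -1.77 ± 0.38, adjusted p = 0.000212). On the female side Cyp2a4 rose from 0.0901 to 1.35 CPM (median 0.677) in chow to 9.66 to 66.6 CPM (median 17.5) in treated mice (4.95 ± 0.72, adjusted p = 4.72e-07). Cyp2b13 rose from 0 to 0.541 CPM (median 0.0520) to 0.936 to 12.8 CPM (median 3.14) (4.81 ± 0.74, adjusted p = 1.36e-06). Neither overlapped chow. Cyp2b9 was read at 0 to 34.8 CPM (median 4.86), 0.691 to 33.5 CPM (median 4.27) and 12.4 to 199 CPM (median 51.1) in the 3 groups. It was higher than in chow (3.32 ± 0.78, adjusted p = 0.000706) and than under vehicle (3.24 ± 0.76, adjusted p = 0.00161).

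In 7 genes the treated mice lay outside both other groups, without overlap and with both differences past the test. Lepr was read at 2.18 to 9.78 CPM (median 3.27) in chow, 5.68 to 24.3 CPM (median 14.3) in vehicle-dosed and 41.3 to 97.1 CPM (median 66.0) in treated mice. It was higher by 3.69 ± 0.37 and 2.24 ± 0.33 (adjusted p = 9.34e-11 and 1.76e-06). Cyp17a1, a steroid hydroxylase and lyase, was read at 3.70 to 26.5 CPM (median 9.83), 7.11 to 27.1 CPM (median 10.9) and 50.1 to 147 CPM (median 74.8). It was higher by 2.94 ± 0.38 and 2.58 ± 0.37 (adjusted p = 5.54e-08 and 8.92e-07). These were the larger of the 7 differences. The zinc finger gene Zfp626 was higher by 0.76 and 0.45. The immune checkpoint ligand Cd276 (-1.14 and -1.75), the Golgi GTPase activator Arfgap3 (-0.88 and -0.73), the F-box gene Fbxw9 (-0.79 and -0.66) and Tmbim1 (-0.41 and -0.36) were lower. Slc2a4 was read at 0.205 to 2.09 CPM (median 0.570), 1.45 to 7.74 CPM (median 3.38) and 5.22 to 19.2 CPM (median 16.9), above chow in every treated mouse (4.24 ± 0.38, adjusted p = 3.53e-12) and, apart from treated mouse 6 at 5.22 CPM, above every vehicle-dosed mouse.

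A further rule took genes with like levels under zalfermin and vehicle whose treated mice all lay outside the chow range. Among these the largest differences from chow were in Htra3, a secreted serine protease (0.947 to 4.07 CPM (median 1.97) in chow, 8.85 to 24.5 CPM (median 14.5) in vehicle-dosed and 5.59 to 25.8 CPM (median 15.1) in treated mice, 2.79 ± 0.37, adjusted p = 1.01e-07), the lymphoid factor Ikzf3 (2.65), Ifi44, the hexosamine enzyme Gfpt2 (2.43) and the checkpoint receptor Havcr2 (TIM-3), read at 0.246 to 1.05 CPM (median 0.506), 2.02 to 3.84 CPM (median 2.75) and 1.96 to 3.53 CPM (median 2.76) (2.31 ± 0.27, adjusted p = 7.75e-09). On the lower side they were Gsta2 (30.5 to 96.5 CPM (median 49.4), 9.92 to 16.4 CPM (median 11.1) and 7.91 to 16.9 CPM (median 10.2), -2.25 ± 0.24, adjusted p = 3.43e-10), Cyp51, Nsdhl, the sugar dehydrogenase Cryl1 (-1.66) and the glucuronosyltransferase Ugt1a9 (-1.61), whose exons are partly shared with the other Ugt1a genes.

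Stress and detoxification genes differed by pathway. Of 18 antioxidant genes of the factor NRF2 10 were lower than in chow and 1 higher (median -0.46), against 3 and 6 under vehicle. Ugdh, which makes UDP-glucuronic acid, was below chow in all treated mice (169.6 to 347 CPM (median 226) against 91.1 to 148 CPM (median 102), -1.08 ± 0.14, adjusted p = 3.96e-08) and did not pass under vehicle (-0.26). Gstm3 was higher than chow under vehicle (1.2) and lower under zalfermin (-0.95 ± 0.34, adjusted p = 0.0219), a difference that did not pass without chow mouse 8 (-0.66, adjusted p = 0.107). Gsta1 likewise gave -3.19 with that mouse, where it read 33.1 CPM, and -1.08 (adjusted p = 0.138) without. In the ATF4 stress response 6 of 20 were higher and 6 lower, or 6 and 3 without chow mice 2, 7 and 8 and treated mouse 6. Asparagine synthetase, Asns, was read at 0.615 to 14.8 CPM (median 7.46) in chow, 0.252 to 2.15 CPM (median 1.06) in vehicle-dosed and 0.0569 to 0.729 CPM (median 0.269) in treated mice (-4.46 ± 0.52, adjusted p = 6.5e-09). The stress factor Atf3 was above chow in every treated mouse (1.43 ± 0.29, adjusted p = 0.000112). Endoplasmic reticulum chaperones were lower in 7 of 21, among them Hspa5 (-0.51 ± 0.17, adjusted p = 0.0169) and Hyou1 (-0.78).

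Acute phase genes turned on chow mice 2 and 7. With all mice 13 of 20 were lower under zalfermin than in chow and 1 higher (median -0.74). Without those mice 3 were lower and 7 higher (median 0.25), and without chow mouse 2 alone 4 were lower. Saa1 was read at 15.9 to 5193 CPM (median 23.6) in chow, 113 to 415 CPM (median 205) in vehicle-dosed and 92.0 to 213 CPM (median 161) in treated mice, so that 6 chow mice lay under all treated mice and 2 far above them. Its log2 fold change was -2.49 ± 0.75 (adjusted p = 0.00733) with and 2.57 (adjusted p = 3.62e-05) without those 2. Saa2 (-3.05 with, 3.0 without), Lcn2 (-2.70 and 3.92) and Orm2 (-3.31 and 1.59) changed direction in the same way. Saa3, which macrophages make too, was higher with all mice (2.97 to 19.2 CPM (median 4.74) in chow, 9.51 to 25.9 CPM (median 14.5) in treated mice, 1.23 ± 0.31, adjusted p = 0.00163), and the iron hormone Hamp was lower (-1.44 ± 0.47, adjusted p = 0.0125).

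**Figure D4:**
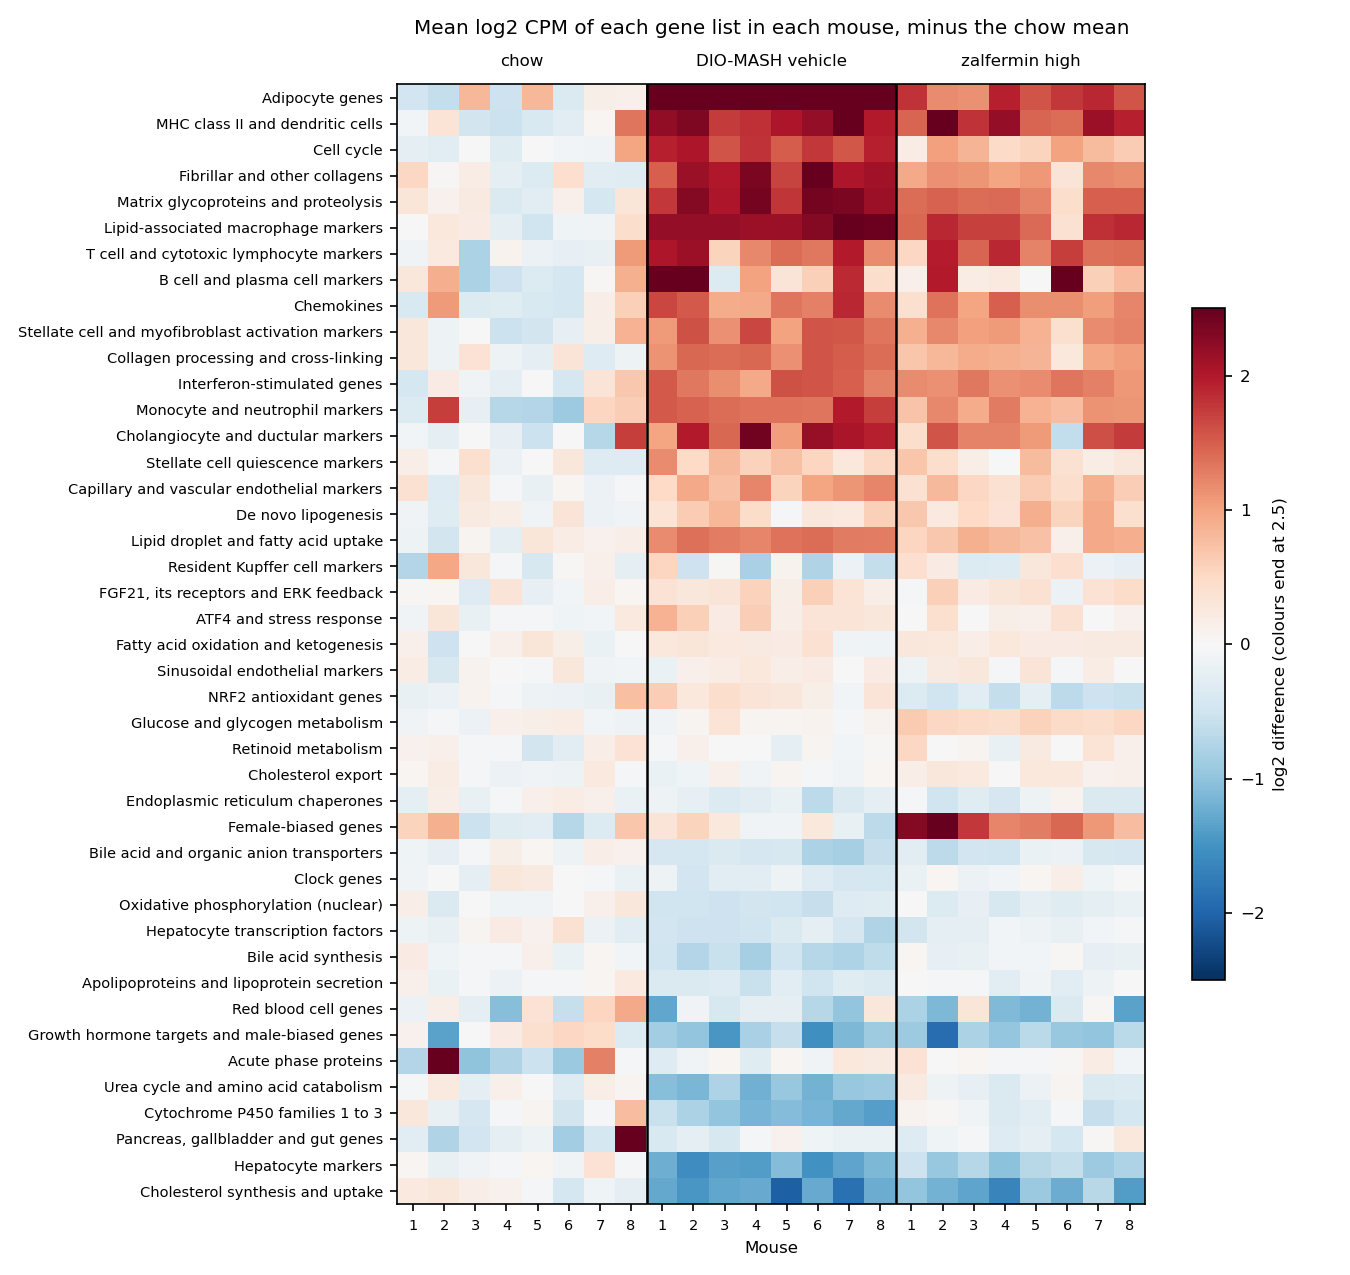
Mean log2 CPM over the tested members of each gene group in each mouse, minus the mean of the chow mice, as a heat map whose colours end at 2.5 either way, for chow, vehicle-dosed DIO-MASH and zalfermin-treated mice. Chow mice 2 and 7 stood out in the acute phase row and chow mouse 8 in the MHC class II, ductular and gut rows, and treated mouse 6 was paler than its group in the matrix and macrophage rows.

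Nuclear genes of oxidative phosphorylation were lower in 22 of 34, each by little: the median was -0.24, against -0.47 under vehicle, where all 34 were lower. The ATP synthase subunit Atp5o had the largest difference (-0.52). The count was 17 without chow mouse 8, 13 without chow mice 2, 7 and 8 and treated mouse 6, and 13 with the series of animal numbers as a covariate.

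Cell cycle genes were higher in 9 of 26 and lower in 1, Ccne1 (median 0.75, against 2.22 and 21 higher under vehicle). The proliferation antigen Mki67 was read at 0.592 to 4.18 CPM (median 1.26) in chow, 7.76 to 22.2 CPM (median 13.7) in vehicle-dosed and 2.26 to 12.3 CPM (median 5.01) in treated mice. The log2 fold change was 1.79 ± 0.38 against chow and -1.27 ± 0.33 against vehicle (adjusted p = 0.000231 and 0.00490). Chow mouse 8 held high values, and without it 15 of 26 were higher than in chow. Cdkn1a, the cell cycle inhibitor p21, was one of those added. It was read at 24.6 CPM in that mouse, and gave 0.57 ± 0.55 (adjusted p = 0.430) with it and 1.86 (adjusted p = 0.00533) without.

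Ductular and cholangiocyte markers, many of which gut epithelium also expresses, depended on chow mouse 8. With it 9 of 20 were higher than in chow (median 0.47) and without it 15 (median 1.88). Krt19 was read at 156 CPM in that mouse and at no more than 4.20 CPM in the other 7, and its difference went from -1.60 ± 0.69 (adjusted p = 0.0613) to 1.79 (adjusted p = 0.00630). Epcam went from -0.31 to 2.08 and Cldn7 from -1.05 to 1.78. Members that were higher either way included Bicc1 (2.29 and 2.22), Krt7 (1.54 and 1.96) and Sox9 (0.85 and 0.83). Of the genes of pancreas, gallbladder and gut 4 of 6 tested were lower, and 1 without that mouse. The adipocyte genes tested, Cfd (2.15), Fabp4 and Cd36, were higher and Nnat (1.47) did not pass. The defining Adipoq, Plin1 and Lep had too few reads to be tested. The part of these tissues in the results was not tested.

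**Figure D5:**
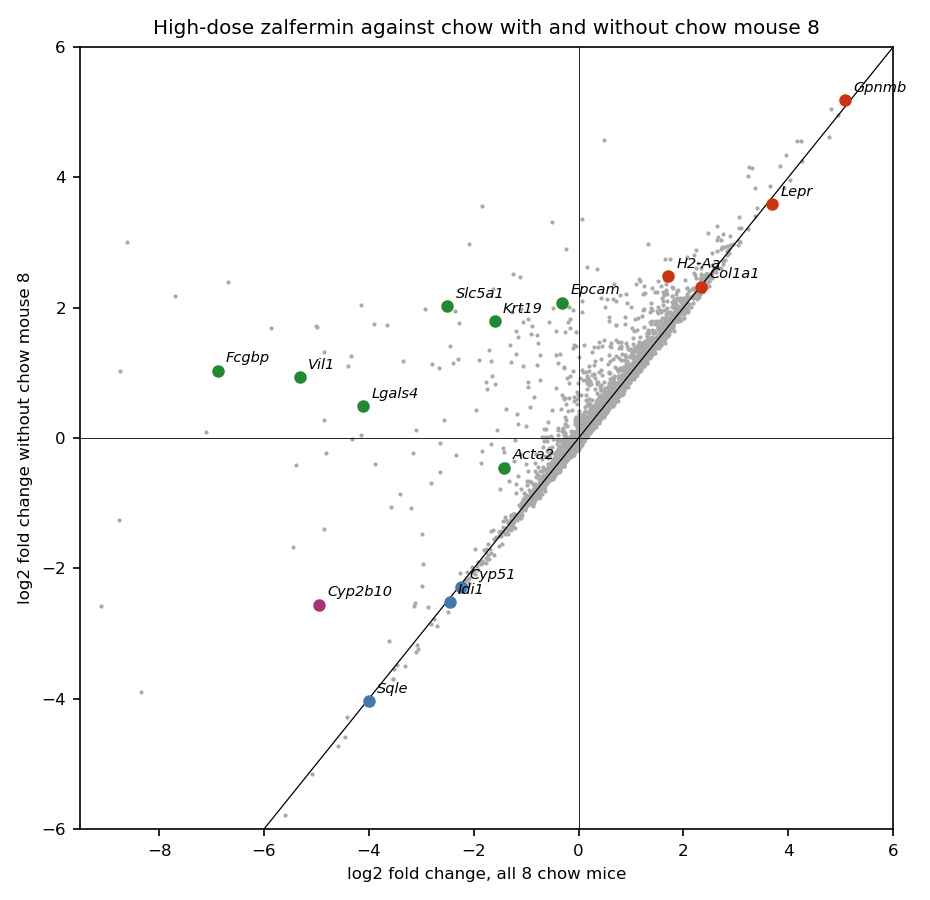
Log2 fold change of zalfermin-treated against chow mice, with all 8 chow mice (x axis) and without chow mouse 8 (y axis). Shown are the genes tested in both fits with a mean of 1 CPM or more over the 16 mice. Most genes lay on the diagonal, Vil1, Slc5a1, Fcgbp, Lgals4, Krt19, Epcam, Acta2 and Cyp2b10 lay off it, and Gpnmb, Col1a1, Lepr, Sqle, Idi1 and Cyp51 stayed near it.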

How the data were processed

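Liver mRNA was sequenced from 56 mice in 7 groups. The authors deposited 1 table of read counts per gene, whole numbers that had not been normalized, with columns named by animal and matched to the labels by sample number. Reads were made from stranded poly(A) libraries and aligned to GRCm38. The sources name STAR, Trim Galore 0.6.4 and Salmon 1.9.0 but do not state plainly which of them gave the counts or whether strand was used. Genes with at least 5 reads in at least 3 mice were kept, 14105 of 21935, and 4352 had no read. They were tested with edgeR 4.0.16 (TMM scaling, quasi-likelihood, R 4.3.3) in one fit of all 7 groups without covariates, two-sided, with Benjamini-Hochberg adjustment over all genes, and a threshold of 0.05. The fit was tested on simulated counts. CPM values are TMM-normalized. The TMM factors were 0.7079 to 0.8975 in chow, 1.078 to 1.202 in vehicle-dosed and 0.888 to 1.093 in zalfermin-treated mice. The median over all genes and small medians of gene groups depend on this scaling. Each mouse is a replicate. The mice, gene lists and rules were chosen with earlier results of these data known. Named genes were the 10 largest log2 fold changes each way among those passing without overlap between groups. Added to them were the 5 largest each way among passing genes with a mean of 100 CPM or more. The rest were genes outside both other groups, the 5 each way alike in both DIO-MASH groups, and members of 44 fixed lists. A few members are counted but not reported here by name. The 13 mitochondrially encoded genes of 1 list are not in the table. Alternatives were DESeq2 1.42.0, its size factors, other filters and group sets, the series of animal numbers as a covariate, and each mouse of the 2 groups of a comparison left out in turn. The series of animal numbers are ranges made here from the numbers in the labels. The labels name no such series, and the numbers within them are not all consecutive. They are not stated to be batches.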

Additional observations from a re-analysis of the deposited data

Results flagged for a closer look

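A mouse was picked out where its value stood far from the other 7 of its group by Dixon's criterion, which chance alone meets in about 1 of 20 sets. In all 180 sets of 8 values from the chow and the treated mice were examined, and 33 values met it. The sets were the genes picked by size, abundance or level, the gene group levels, read depth and the likeness of libraries. Genes named only as list members were not examined singly. No cause was weighed for any of them.

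High-dose zalfermin mouse 6 was the lowest of its group in Gpnmb (3.04 CPM), Mmp12 (0.972 CPM), Slc2a4 (5.22 CPM), Trem2 (1.58 CPM), Spp1 (26.4 CPM) and Cd36 (126 CPM). Its mean log2 level relative to the chow mean was also lowest for collagens (0.319), collagen processing and cross-linking (0.273), matrix glycoproteins (0.447), stellate cell activation markers (0.400) and lipid-associated macrophage markers (0.379). On the first principal component of the 500 most variable genes it scored 15.6, on the chow side of its group.

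Chow mouse 8 was highest in its group in Cyp2b10 (109 CPM), Cyp2c55 (63.0 CPM), H2-Aa (230 CPM), Arfgap3 (22.3 CPM) and Cryl1 (99.1 CPM), and in the levels of NRF2 genes (0.754), MHC class II genes (1.34), ductular markers (1.74), cell cycle genes (0.984) and genes of pancreas, gallbladder and gut (3.15). Its mean rank correlation with the other chow mice was the lowest, at 0.947.

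Chow mouse 2 was highest in Sult1e1 (1.05 CPM) and lowest in growth hormone targets and male-biased genes (-1.34). Chow mouse 4 was lowest in Fbxw9 (26.3 CPM) and chow mouse 7 highest in hepatocyte markers (0.355). High-dose zalfermin mouse 2 was highest in Cyp2a4 (66.6 CPM) and lowest in Serpina1e (28.5 CPM) and in male-biased genes (-1.91). High-dose zalfermin mouse 1 was highest in Zfp626 (5.73 CPM) and lowest in hepatocyte transcription factors (-0.455) and chemokines (0.408).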

How the results depend on the processing

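The count of 5249 genes ranged from 4008, with only the compared groups in the fit, to 5316, without 1 low-dose semaglutide mouse, where no size of change was required, and from 4674 to 5312 with 1 chow or treated mouse left out. Adding a log2 fold change of at least 1 cut the counts to 1930 (zalfermin against chow), 3013 (vehicle against chow) and 506 (zalfermin against vehicle). Over 26 tested settings the 246 named genes gave 6391 values, of which 194 lost and 90 gained a call and 25 turned. With 1 mouse left out their log2 fold changes ranged from -5.88 (Cd163) to 6.26 (Sult1e1). Of the 165 called, 129 kept their call and direction in every setting. Within the series of animal numbers A and C, which hold 2 chow and 3 treated or 3 chow and 2 treated mice, 10 of 492 log2 fold changes turned, with no test. Series B holds 1 chow and 3 treated mice. Chow mice 7 and 8 are the only chow mice of series D, which holds no treated mouse. Without chow mice 2 and 7, then also without chow mouse 8 and treated mouse 6, and within series C, the log2 fold change became 1.59, 2.09 and 1.68 for Orm2, 3.0, 3.71 and 3.56 for Saa2, 2.57, 3.02 and 3.01 for Saa1, 3.92, 4.38 and 4.28 for Lcn2 and 0.39, 0.50 and 0.77 for Hp. Lcn2 also turned with DESeq2 (0.92) and without chow mouse 2 (1.33). Without chow mouse 8, and then without all 4 mice, it became 0.60 and 0.82 for Tagln, 0.84 and 1.05 for Des, 1.79 and 1.71 for Krt19, 2.08 and 2.09 for Epcam and 1.78 and 1.86 for Cldn7. With the number series as a covariate Des gave 0.80 and Epcam 1.67, and the lower calls went from 22 to 13 in oxidative phosphorylation, from 7 to 4 among apolipoproteins, from 3 to 1 in FGF21 signalling and from 3 to 1 in red blood cell genes. Acta2 gave 0.33 without all 4 mice and 0.69 within series C, Abca1 -0.14 and S100a8 0.0043 within series C, and Hsd17b13 0.073 and Apoc3 0.053 within series A. The alternatives that leave out several mice were chosen after seeing the data, and the cause of these changes beyond the mice left out was not tested. No paired analysis was possible because the labels give the mice of different groups no shared replicate numbers and do not say that neighbouring animal numbers belong together. Genes of a few reads, such as the lymphocyte markers, are limited by depth.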

Other observations

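In fatty acid oxidation and ketogenesis, whose genes fasting and PPAR-alpha switch on, 3 of 26 were higher and 3 lower, with a median log2 fold change of 0.08. Without chow mouse 5, 5 were higher, and without chow mouse 2, 5 were lower. The higher ones were Pdk4 (1.25), which restrains glucose oxidation, Acot2 (1.16) and Cyp4a14 (1.08), and Cpt1a, the gate of mitochondrial uptake, gave 0.13 ± 0.14 (adjusted p = 0.465). In glucose and glycogen metabolism 5 of 19 were higher (3 without chow mice 2, 7 and 8 and treated mouse 6), among them G6pc (1.5 ± 0.39) and the glycogen-targeting subunit Ppp1r3g (1.65 ± 0.52), and the transporter Slc2a2 was lower (-0.49). Of 14 bile acid and organic anion transporters 7 were lower (4 without treated mouse 4), including Slco1a1 (-1.82) and the bile acid importer Slc10a1, which was read at 814 to 1107 CPM (median 972) in chow, 244 to 360 CPM (median 321) in vehicle-dosed and 603 to 842 CPM (median 776) in treated mice (-0.36 ± 0.14, adjusted p = 0.0304, and 0.0534 without chow mouse 8).

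Sinusoidal endothelial markers were higher in 4 of 16, beside 19.7% of all genes tested, with a median of -0.03. Lyve1 gave 1.26 ± 0.27 and Stab2 0.21 ± 0.15 (adjusted p = 0.000229 and 0.255). Capillary and vascular endothelial markers were higher in 6 of 14 (median 0.38, against 0.77 and 12 higher under vehicle), led by the low-level Apln (2.85) and by Cd34, read at 1.14 to 4.41 CPM (median 1.92) in chow, 6.33 to 21.1 CPM (median 16) in vehicle-dosed and 4.74 to 12.7 CPM (median 9.10) in treated mice (2.03 ± 0.40, adjusted p = 8.06e-05). In retinoid metabolism 3 of 16 were higher and 6 lower, beside 19.7% and 17.6% of all genes tested. The retinoic acid hydroxylase Cyp26a1 was at 0.08 against chow and 2.78 against vehicle (adjusted p = 0.909 and 0.000186). Of 17 clock genes 1, Arntl (1.38), was higher and 2, Ciart (-1.06) and Bhlhe41 (-0.82), were lower, and none of these calls held throughout: the first was lost without chow mouse 8 or treated mouse 6, and both others without chow mouse 4 or 5, among other mice. Red blood cell genes were lower in 3 of 7, or in 1 without chow mouse 8 and 5 without chow mouse 3, 4 or 6 or treated mouse 3 or 7, and the part of blood in the tissue was not tested. The letters TGATGNAA, searched as a composite element bound by ATF4, were found in 7 of the 19 ATF4 and stress response genes with a promoter in the table (36.8%) and in 2.94% of the 11057 tested genes with one.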
